A study of Mus musculus with 12 samples.

Results

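The immediate early factors described here are 10 of the 17995 genes in the expression table: Fos, Fosb, Fosl1, Fosl2, Jun, Junb, Egr1, Myc, Klf6 and Ier3. They were taken by gene symbol, and the set was chosen by their measured values in these same libraries, so their own differences are given as a description and carry no test. The study used lentiviral short hairpin RNAs to lower M5, the muscarinic acetylcholine receptor encoded by Chrm5, in 2 mouse testis cell lines, and asked what its loss did to germ cells and Sertoli cells. Poly(A) RNA was sequenced from 12 libraries, 3 in each of 4 groups: C18-4 shNC, C18-4 shM5, TM4 shNC and TM4 shM5. The study used C18-4 as a spermatogonial stem cell line and TM4 as a Sertoli cell line, each 1 immortalised line. shM5 was a mix of 3 hairpins against M5 and shNC a control hairpin, and both were carried stably by the cells, so the controls had also received virus. C18-4 cells were grown in DMEM/F12 and TM4 cells in DMEM, so that line and medium cannot be told apart. The labels do not say that replicates were separate cultures, and a p-value then measures only the spread between these samples.

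Immediate early genes are transcribed within minutes of a growth factor, a stress or the handling of cells, without new protein synthesis. Fos and Jun proteins pair through leucine zippers to form AP-1, which binds DNA and drives a later wave of genes, and kinase pathways act on these genes mainly through serum response factor and CREB at their promoters. MYC, with its partner MAX, drives genes of growth and ribosome production. The transcripts and several of the proteins are short lived, so levels in cultured cells move quickly. In the testis, AP-1 factors are known in Sertoli cells and in spermatogonia.

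The promoters of 5 of the genes are shown because Fos and Fosb stand for one pattern of levels described below, Jun and Klf6 for another, and Junb for the gap between the C18-4 groups. They are the 150 bases before the start of transcription, 5′ to 3′ on the strand of the gene, from RefSeq on GRCm38.p6. Fos lies at chr12:85473740-85473889 on the plus strand, Fosb at chr7:19310046-19310195 on the minus strand, Junb at chr8:84978749-84978898 on the minus strand, Jun at chr4:95052223-95052372 on the minus strand and Klf6 at chr13:5861339-5861488 on the plus strand. Capitals mark matches to any motif searched.
Fos: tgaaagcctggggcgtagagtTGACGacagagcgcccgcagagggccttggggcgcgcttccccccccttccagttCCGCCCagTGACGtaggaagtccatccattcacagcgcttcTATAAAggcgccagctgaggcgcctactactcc
Fosb: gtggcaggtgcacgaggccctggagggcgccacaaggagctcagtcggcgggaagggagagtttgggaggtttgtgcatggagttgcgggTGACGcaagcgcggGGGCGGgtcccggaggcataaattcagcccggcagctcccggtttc
Junb: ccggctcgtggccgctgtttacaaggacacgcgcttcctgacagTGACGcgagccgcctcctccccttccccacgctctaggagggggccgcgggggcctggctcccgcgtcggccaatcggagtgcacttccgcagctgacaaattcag
Jun: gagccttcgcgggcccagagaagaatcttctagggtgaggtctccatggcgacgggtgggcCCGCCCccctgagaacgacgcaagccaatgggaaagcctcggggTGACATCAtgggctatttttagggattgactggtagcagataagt
Klf6: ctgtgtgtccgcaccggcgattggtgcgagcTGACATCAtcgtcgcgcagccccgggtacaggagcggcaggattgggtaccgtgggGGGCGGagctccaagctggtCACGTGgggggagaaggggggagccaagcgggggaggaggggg
RefSeq promoters were matched for 7 of the 10 genes (Fos, Fosb, Fosl2, Jun, Junb, Klf6 and Ier3), and Fosl1, Egr1 and Myc were not matched. The search of the members skipped a chromosome, so a missing match does not show that RefSeq held no entry. The search covered both strands of 300 bases, 250 before to 50 after the start. The GC box GGGCGG was present in 6 of the 7, all but Junb, and in 35.7% of 32851 promoters. The TATA box (TATAAA or TATATA) was present in Fos, 33 to 28 bases before the start, and in Junb just after it, against 17.1% of all promoters. The E-box CACGTG, the site of MYC and MAX, was found in Klf6 alone, 43 to 38 bases before the start, against 7.15%. The AP-1 site TGANTCA (7.81% of all promoters), the full cAMP response element TGACGTCA (1.79%) and the CArG box of serum response factor (1.63%) were in none of the 7 windows. After the sequences had been read, 2 more words were searched. The core TGACG, which lies within the full response element, was in Fos at 129 to 125 and at 66 to 62 bases before the start, in Fosb at 60 to 56 and in Junb at 106 to 102, and in 20.8% of all promoters. TGACATCA was in Jun at 45 to 38 and in Klf6 at 119 to 112 bases before the start, and in 3.62% of all promoters. Because these 2 words were picked from these same promoters, the shares beside them are no test. A link between the words and the patterns of levels was not tested. These matches describe letters only, and sites further from the start, or in the genes not matched, were not searched.

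Several facts of the whole series touch the values below. Levels are RPKM, reads per kilobase of gene scaled to the mapped reads of the library, which can be compared between genes because length is divided out. Chrm5 was between 0 and 0.01 RPKM in all 12 libraries, shNC and shM5 alike, so that the knockdown could not be read from it. The markers matched the line names only in part. In TM4 cells 7 of 13 Sertoli genes reached 1 RPKM, and in C18-4 cells 6 did. Of 15 spermatogonial genes 3 did so in C18-4 cells (Uchl1, Id4 and Etv5) and 2 in TM4 cells. In C18-4 cells Kit and Stra8 were at 0 and Gfra1 was at 0.12 to 0.34 RPKM. Zbtb16, Ret, Dazl, Ddx4 and Pou5f1 were at most 0.07 RPKM there. Summed spermatogonial markers were at 81.6 to 146 RPKM in C18-4 and 9.72 to 17.3 RPKM in TM4 libraries, the direction of the line names. Uchl1, at 76.8 to 140 RPKM in C18-4 and 0 in TM4 libraries, made up most of the C18-4 sum. Of 4 spermatogonial genes tested between the shNC groups, 2 were called higher in TM4 and 2 lower. Summed Sertoli markers were at 69.95 to 88.0 RPKM in C18-4 and 45.1 to 86.0 RPKM in TM4 libraries, and the Sertoli gene Wt1 was at 53.93 to 72.32 RPKM in C18-4 and 0.06 to 0.15 RPKM in TM4 libraries, the reverse of the line names. Peritubular and fibroblast markers summed to 436 to 597 RPKM in C18-4 and 1325 to 1880 RPKM in TM4 libraries. Leydig markers summed to at most 1.58 RPKM and macrophage markers to 1.11 to 4.45 RPKM. Of 6 macrophage genes 1 reached 1 RPKM in each group, Cd68 at 1.06 to 4.24 RPKM, and Adgre1 was at 0. Libraries also stood apart from their groups. In TM4 cells, shNC replicate 3 differed from the other shNC libraries by 0.64 (root mean square difference of log2 values over the tested genes) and from the shM5 libraries by 0.20 to 0.26. In C18-4 cells, replicate 3 of both groups stood apart from replicates 1 and 2, at 0.38 to 0.44 within a group against 0.20 between replicates 1 and 2. Results within each line are therefore also given without these libraries. In bulk RNA, fewer cells of a type and less RNA per cell cannot be told apart.

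Levels spanned a wide range in both lines. In the 6 C18-4 libraries the order of medians was Ier3 (176 RPKM), Klf6 (59.2), Myc (44.1), Junb (39.9), Egr1 (22.8), Jun (21.6), Fosl2 (20.2), Fos (8.57), Fosl1 (5.59) and Fosb (0.37). Neighbours in this order overlapped in range except Ier3 and Klf6, Fosl2 and Fos, and Fosl1 and Fosb. In the 6 TM4 libraries it was Ier3 (354 RPKM), Myc (118), Fosl1 (115), Junb (96.2), Egr1 (70.1), Fosl2 (60.6), Klf6 (41.3), Jun (27.8), Fos (2.87) and Fosb (2.10), and only Jun and Fos did not overlap with each other. Ier3, which encodes a short-lived protein that affects cell survival, was therefore the most abundant of the 10 by median in both lines, and Fosb, in C18-4 cells at 0.16 to 0.82 RPKM, the least. Fosl1 moved furthest in rank, from 9th in C18-4 cells to 3rd in TM4 cells.

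**Figure D1:**
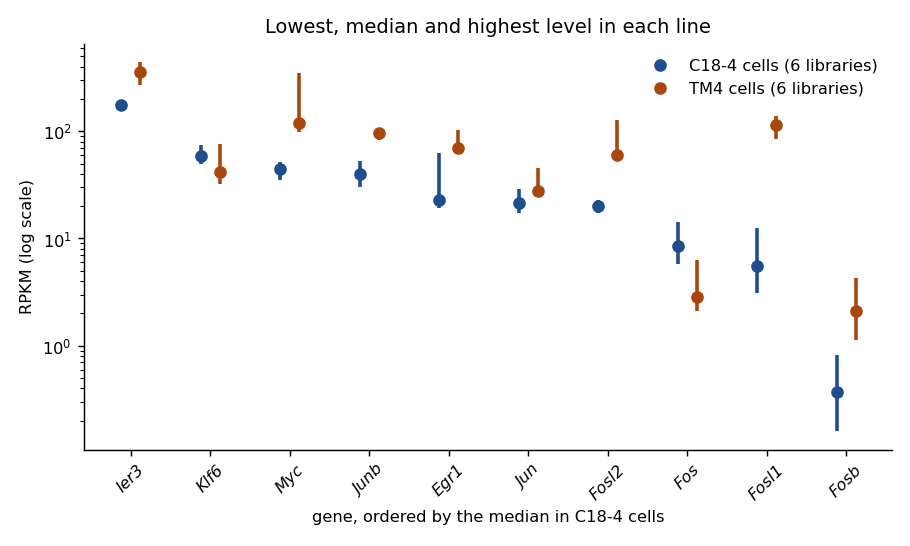
Level of each gene in RPKM (log axis) in C18-4 cells (blue) and TM4 cells (orange); points are medians and lines run from the lowest to the highest of 6 libraries. Fosl1 goes from a median of 5.59 RPKM in C18-4 cells to 115 RPKM in TM4 cells, and Fos and Klf6 are the genes with a lower median in TM4 than in C18-4 cells.

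Between the lines, 6 of the 10 genes (Fosl1, Fosl2, Fosb, Junb, Myc and Ier3) were higher in every TM4 library than in every C18-4 library, where 19.9% of the 11773 genes tested over all libraries were, and none was lower in every one, where 32.9% were. Fosl1, the FOS-family partner often raised in motile and RAS-driven cells, was at 3.11 to 12.41 RPKM in the 6 C18-4 libraries and 83.73 to 139.41 RPKM in the 6 TM4 libraries. In the shNC libraries alone its log2 difference was 3.87 ± 0.37 (SE, n = 3 and 3), or 14.6-fold, fitted as log2(RPKM + 0.1). Myc was 5.56-fold higher in TM4 shNC cells (log2 2.48 ± 0.32) and Fosl2, another AP-1 partner, 4.52-fold (2.18 ± 0.23). Both were highest in TM4 shNC replicates 1 and 2, and replicate 3 lay nearer to C18-4. Myc was at 352.25, 346.14 and 127.44 RPKM in replicates 1 to 3, and at 43.78 to 46.19 RPKM in C18-4 shNC. Fosl2 was at 126.52, 127.42 and 60.34 RPKM, and at 20.69 to 22.66 RPKM in C18-4 shNC. Folds without those replicates are not given. Fosb was 3.77-fold higher (1.92 ± 0.55), Egr1 2.35-fold (1.23 ± 0.43), Junb 1.97-fold (0.98 ± 0.12), Ier3 1.93-fold (0.95 ± 0.15) and Jun 1.85-fold (0.88 ± 0.21). Klf6 differed by 0.18 ± 0.18. Fos went the other way, with −1.23 ± 0.45, and its ranges overlapped, at 5.77 to 14.12 RPKM in C18-4 and 2.13 to 6.36 RPKM in TM4 libraries.

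The median log2 difference between the lines over all genes was −0.15. Median scaling shifts each library to the same median deviation from the gene means, and so brought this to 0.01 by design. Whether the shift came from scale or from RNA composition was not tested. After scaling, the differences were 4.03 for Fosl1, 2.64 for Myc, 2.34 for Fosl2, 2.08 for Fosb, 1.39 for Egr1, 0.34 for Klf6 and −1.06 for Fos. No sign turned among the 10. In limma's moderated fit, with a call at a Benjamini-Hochberg adjusted p below 0.05, 3014 genes (25.6%) were higher in TM4 shNC and 4711 (40%) lower, and after median scaling 3891 were higher and 3858 lower. Of 33 other immediate early genes tested, 24 were higher in TM4 shNC cells and 3 lower. Of the other groups, 19 of 29 MYC target genes were higher and 3 lower, 17 of 23 AP-1 target genes were higher and 2 lower, and 8 of 15 genes of the MYC network were higher and 4 lower. Other bZIP partners of AP-1 gave 5 higher and 3 lower of 14, and other Kruppel-like factors 4 and 3 of 12. The upstream serum response factor, CREB and MAP kinase genes were 10 higher and 11 lower of 38, and 15 and 6 after median scaling. In C18-4 shNC cells the matrix protein gene Spp1, an AP-1 target, averaged 63.6 ± 2.19 RPKM (SD, n = 3), and in TM4 shNC cells 2222 ± 348 RPKM.

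In C18-4 cells, the question was what the M5 hairpins did to these genes in the line that the study used as germ cells. Of the 9 genes tested there, 0 passed the adjusted threshold without a block, beside 0.586% of 11611 genes, and the values chose the members, so nothing is read from this count or from those under other settings. Fosb, at a mean below 0.5 RPKM, was not tested. Fosl2 and Junb had all 3 shM5 libraries below all 3 shNC libraries (2 of 9, beside 9.55% of all genes), and no member had all 3 above (9.3% of all genes). Same-numbered libraries deviated together in this line, though replicates 1 and 2 also did so across numbers. The fit was repeated with the replicate number as a block, a pairing that the labels do not state. Then 4 of 9 were called, all lower with shM5, namely Fosl1, Fosl2, Junb and Egr1, beside 11.9% of all genes. With replicate 3 of each group left out, 7 of 9 were called, Fosl1, Junb and Myc lower and Fos, Jun, Klf6 and Ier3 higher, beside 26.1% of all genes.

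Junb, a JUN protein that often restrains growth, was at 41.2, 42.26 and 53.12 RPKM in C18-4 shNC replicates 1 to 3 and at 31.4, 30.12 and 38.64 RPKM in shM5. The groups did not overlap, and its log2 difference was −0.45 ± 0.13 (SE). Fosl2 was at 20.69, 22.66 and 22.23 RPKM in shNC and 18.46, 19.72 and 17.23 RPKM in shM5, a smaller gap of −0.24 ± 0.08. Fosl1 was at 11.87, 12.41 and 4.04 RPKM in shNC and 5.34, 5.83 and 3.11 RPKM in shM5. In both groups replicate 3 was the lowest, the ranges overlapped through shNC replicate 3, and the difference of −0.86 ± 0.45 became −1.38 without that library. Replicate 3 of each group left out, it was −1.11.

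Egr1, a zinc-finger factor among the fastest genes to respond to serum, was at 20.45, 25.16 and 62.8 RPKM in C18-4 shNC and 19.42, 19.46 and 46.26 RPKM in shM5. Both groups were high in replicate 3 and overlapped. Its log2 difference was −0.29 ± 0.49. Each shM5 library was below the shNC library of the same number, and the standard error was 0.08 with the replicate block. Leaving out replicate 3 of both groups gave −0.22. Leaving out only 1 of them gave 0.19 without shNC replicate 3 and −0.71 without shM5 replicate 3. The direction turned only without shNC replicate 3, the library at 62.8 RPKM. Fos was at 5.77, 6.19 and 14.12 RPKM in shNC and 8.74, 8.4 and 12.08 RPKM in shM5. Replicate 3 was again the highest in each group, the difference was 0.27 ± 0.34, and without shNC replicate 3 it was 0.68. Fosb was at 0.37, 0.37 and 0.47 RPKM in shNC and 0.16, 0.18 and 0.82 RPKM in shM5, too low for a fold.

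Myc was at 43.78, 44.46 and 46.19 RPKM in C18-4 shNC and 35.29, 35.04 and 51.85 RPKM in shM5. The shM5 libraries lay on both sides of the shNC ones, with a difference of −0.16 ± 0.15. Klf6, a Kruppel-like zinc-finger factor, was at 49.58, 52.77 and 69.4 RPKM in shNC and 59.09, 59.28 and 73.81 RPKM in shM5, which overlapped, with 0.17 ± 0.15. Jun was at 17.18, 17.95 and 28.65 RPKM in shNC and 21.7, 21.42 and 28.91 RPKM in shM5, a difference of 0.20 ± 0.21, again with replicate 3 highest in both. Ier3 was at 160.8, 153.83 and 177.78 RPKM in shNC and 187.55, 189.76 and 174.64 RPKM in shM5, and the groups overlapped, with 0.17 ± 0.08. In the same libraries the summed Sertoli markers, mostly Wt1, were at 69.95 to 76.2 RPKM in shNC and 79.3 to 88.0 RPKM in shM5. The spermatogonial ones, mostly Uchl1, were at 81.6 to 124 and 127 to 146 RPKM. The peritubular and fibroblast ones were at 436 to 499 and 509 to 597 RPKM. Of the genes tested, 5 Sertoli ones were above 0 and 2 below, 2 and 1 spermatogonial ones, and 4 and 2 peritubular and fibroblast ones, none called. Their part in the differences was not tested.

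**Figure D2:**
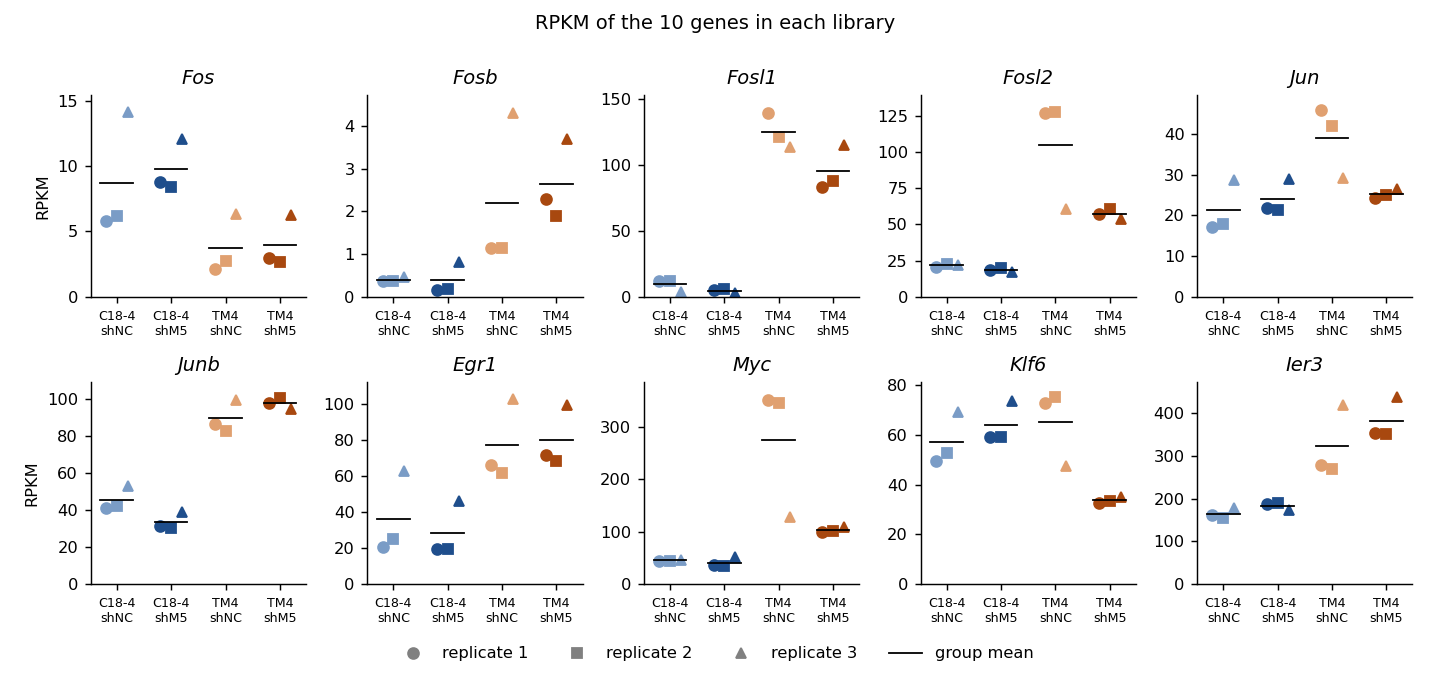
RPKM of each of the 10 genes in the 12 libraries, each panel on its own linear axis from 0; shapes mark the replicate number, colours the group and black lines the group mean. Replicate 3 (triangles) is highest in all 4 groups for Fos, Fosb and Egr1, and in TM4 shNC it is below replicates 1 and 2 for Myc, Fosl2, Klf6 and Jun.

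The genes of the same pathway are set beside these values. In C18-4 cells 0 of 33 other immediate early genes were called, and 5 were higher and 4 lower with the block, under which 11.9% of all genes were called. Cyr61, Ctgf and Errfi1 were the most abundant of them, with differences of 0.02, 0.04 and 0.15 (log2) and no call. One of 14 other bZIP partners was called, Mafk, which encodes a small MAF protein, at 20.2 ± 1.03 RPKM in shNC and 29.0 ± 1.41 RPKM in shM5 (log2 difference 0.52, limma adjusted p = 0.0459, with 3 of 3 shM5 libraries above shNC). One of 20 AP-1 target genes was called, Spp1, at 63.6 ± 2.19 RPKM in shNC and 35.0 ± 4.01 RPKM in shM5 (−0.87, limma adjusted p = 0.0367, with 3 of 3 below). When 1 library was left out at a time, Mafk was called only without shNC replicate 3 and Spp1 only without replicate 3 of either group. Without shNC replicate 1, shNC replicate 2, shM5 replicate 1 or shM5 replicate 2, the adjusted p was 0.229 to 0.268 for Mafk and 0.176 to 0.24 for Spp1, and without shM5 replicate 3 it was 0.0827 for Mafk. With no filter on low values the adjusted p was 0.0703 for Mafk and 0.0609 for Spp1, and Mafk was also not called with no trend (0.0665) or in 1 fit of all 12 libraries (0.419). With the block, 4 bZIP partners were higher and 3 lower, and 5 AP-1 targets were higher and 5 lower. No gene of the upstream list (0 of 38; block 3 higher, 3 lower), the MYC network (0 of 14; block 1 and 2), the MYC targets (0 of 29; block 1 and 1) or the Kruppel-like factors (0 of 12; block 0 and 1) was called. With replicate 3 of each group left out, where 26.1% of all genes were called, the counts were 14 of 33 immediate early genes (7 higher, 7 lower), 10 of 14 bZIP partners (6 and 4), 12 of 20 AP-1 targets (7 and 5), 12 of 29 MYC targets (1 and 11), 7 of 14 MYC network genes (4 and 3), 9 of 38 upstream genes (5 and 4) and 4 of 12 Kruppel-like factors (3 and 1). List medians lay between −0.05 for MYC targets and 0.08 for bZIP partners and the MYC network, and the median over all genes was 0.00.

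In TM4 cells, the same question was asked of the line that the study used as Sertoli cells. None of the 10 genes was called there, and none of 11016 genes was (0%, and 0% with the replicate block), although 2866 genes had an unadjusted p below 0.05 in limma. Klf6, Jun and Myc had all 3 shM5 libraries below all 3 shNC libraries (3 of 10, beside 11.1% of all genes). No member had all 3 above, where 15.7% of all genes did. Without shNC replicate 3, which lay near the shM5 libraries, 8 of 10 were called, beside 67.4% of all genes. Fosl1, Fosl2, Jun, Myc and Klf6 were lower with shM5, and Fosb, Junb and Ier3 higher. This fit leaves out the control that differed most from the other controls, and the values chose the members. Nothing is therefore read from this count or its directions.

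Myc stood highest in TM4 shNC replicates 1 and 2, at 352.25 and 346.14 RPKM, with 127.44 RPKM in replicate 3 and 98.68, 101.85 and 108.99 RPKM in shM5. The groups did not overlap, but shNC replicate 3 was near the shM5 level, so that the mean of 275 ± 128 RPKM (SD, n = 3) in shNC against 103 ± 5.28 RPKM in shM5 described no single shNC library. The log2 difference was −1.27 ± 0.39 (SE), and −1.76 without shNC replicate 3. Klf6 had the same shape, at 72.95, 75.52 and 47.55 RPKM in shNC and 32.47, 33.6 and 35.06 RPKM in shM5. Its shNC replicate 3 stayed above every shM5 library, with a difference of −0.92 ± 0.18, and −1.14 without that library.

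Fosl2 was at 126.52, 127.42 and 60.34 RPKM in TM4 shNC and 57.48, 60.86 and 53.46 RPKM in shM5. Its shNC replicate 3 lay within the shM5 range, so the groups overlapped, and the difference of −0.79 ± 0.29 was −1.15 without it. Jun was at 45.82, 41.81 and 29.24 RPKM in shNC and 24.15, 25.1 and 26.36 RPKM in shM5, a difference of −0.60 ± 0.17, and −0.79 without that library. In these 4 genes the ratio of shNC replicate 3 to the mean of replicates 1 and 2 was 0.365 for Myc, 0.475 for Fosl2, 0.641 for Klf6 and 0.667 for Jun. The summed Sertoli markers were at 48.1 to 86.0 RPKM in the shNC and 45.1 to 47.4 RPKM in the shM5 libraries. Of 7 tested Sertoli genes 3 were above 0 and 4 below, with a median log2 difference of −0.10, none called. Among them Kitl was at 49.5, 49.41 and 22.73 RPKM in shNC and 18.42, 18.45 and 21.99 RPKM in shM5. The peritubular and fibroblast markers summed to 1325 to 1608 RPKM in shNC and 1429 to 1880 RPKM in shM5, with a median log2 difference of 0.79 and 5 of 6 tested genes above 0, none called. Of the peritubular and fibroblast genes, Acta2, smooth-muscle actin, was at 66.39, 63.29 and 139.83 RPKM in shNC and 143.86, 141.73 and 193.88 RPKM in shM5. The part of these markers in the differences was not tested.

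Fos, Fosb and Egr1 had another shape in TM4 cells. Fos was at 2.13, 2.75 and 6.36 RPKM in TM4 shNC and 2.99, 2.69 and 6.25 RPKM in shM5, replicate 3 being above replicates 1 and 2 in each. Its difference was 0.14 ± 0.48, and turned to −0.23 without shM5 replicate 3. Fosb was at 1.14, 1.14 and 4.3 RPKM in shNC and 2.3, 1.89 and 3.7 RPKM in shM5, a difference of 0.47 ± 0.54, and 1.08 without shNC replicate 3. Egr1 was at 66.02, 61.79 and 102.84 RPKM in shNC and 71.79, 68.33 and 99.29 RPKM in shM5, with 0.07 ± 0.23, and −0.10 without shM5 replicate 3. All 3 genes were highest in replicate 3 of both groups, and their groups overlapped.

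Junb was at 86.08, 82.63 and 99.22 RPKM in TM4 shNC and 97.67, 100.51 and 94.63 RPKM in shM5, and shNC replicate 3 lay within the shM5 range. The difference was 0.13 ± 0.09. Ier3 was at 280, 269.12 and 420.18 RPKM in shNC and 354.63, 352.6 and 438.05 RPKM in shM5, with 0.26 ± 0.19, and 0.47 without shNC replicate 3. Fosl1 was at 139.41, 121.55 and 113.51 RPKM in shNC and 83.73, 87.61 and 115.58 RPKM in shM5. It overlapped through shM5 replicate 3, the highest of its group, and its difference of −0.39 ± 0.14 was −0.54 without that library.

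**Figure D3:**
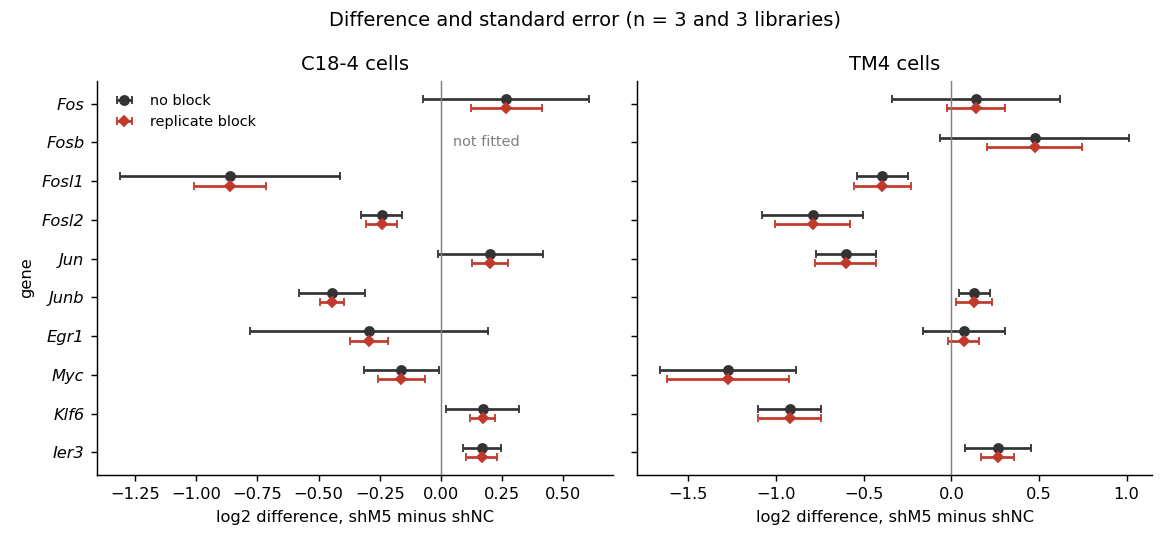
Log2 difference of shM5 minus shNC in log2(RPKM + 0.1), with its standard error, for C18-4 cells (left) and TM4 cells (right); circles are without and diamonds with the replicate number as a block. Myc (−1.27) and Klf6 (−0.92) have the lowest values in TM4 cells, Fosl1 (−0.86) in C18-4 cells, and the block narrows the errors of Egr1, Fos and Fosl1 in C18-4 cells.

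The difference between the lines was tested in 1 fit of all 12 libraries. None of the 10 genes passed, beside 0.102% of 11773 genes, and none with the replicate block, beside 0.017%. The lowest values of the TM4 effect minus the C18-4 effect were −1.11 ± 0.45 (SE) for Myc, −1.09 ± 0.25 for Klf6 and −0.80 ± 0.30 for Jun, and the highest were 0.78 ± 0.78 for Fosb and 0.58 ± 0.17 for Junb. Klf6 and Jun had differences above 0 in C18-4 cells (0.17 ± 0.15 and 0.20 ± 0.21) and below 0 in TM4 cells. Junb and Egr1 had the reverse, with 0.13 ± 0.09 and 0.07 ± 0.23 in TM4 cells. These values above 0 were below or close to their standard errors, so opposite effects in the lines were not shown.

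Across all 12 libraries, replicate 3 was the highest of its group in all 4 groups for Fos, Fosb and Egr1, 3 of the 10 genes, where 336 of 11773 genes (2.85%) had this pattern. For Egr1 replicate 3 was 2.75, 2.38, 1.61 and 1.42 times the mean of replicates 1 and 2 in C18-4 shNC, C18-4 shM5, TM4 shNC and TM4 shM5. For Fos the ratios ran from 1.41 in C18-4 shM5 to 2.61 in TM4 shNC, and for Fosb from 1.27 in C18-4 shNC to 4.82 in C18-4 shM5. No member was lowest in replicate 3 of all 4 groups, where 158 genes (1.34%) were, although Fosl1 and Fosl2 were so in 3 each. What distinguished replicate 3 is not given in the labels, and its part in the differences above was not tested beyond leaving libraries out.

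**Figure D4:**
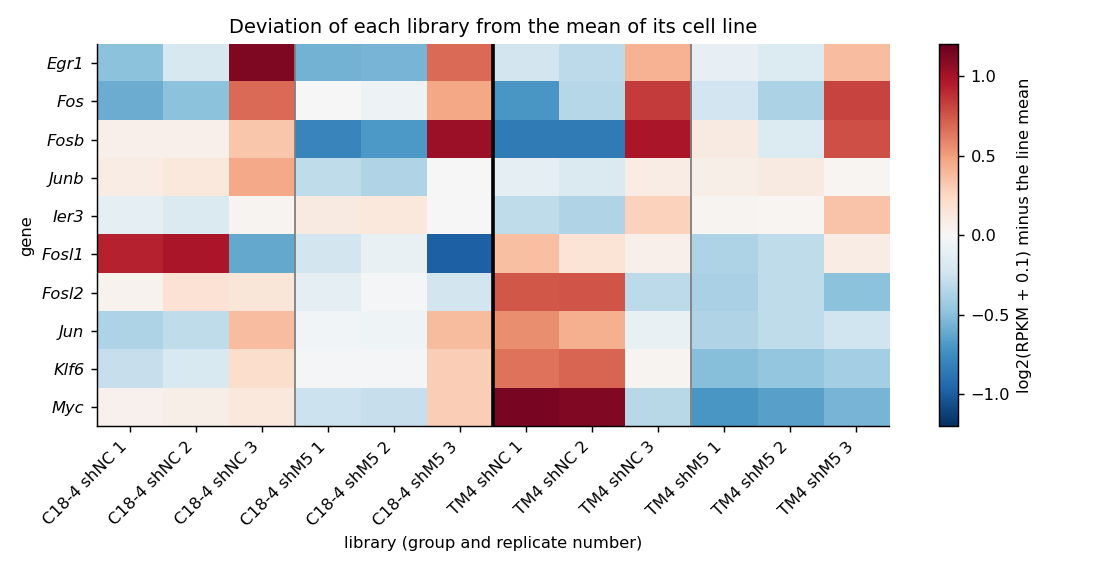
Deviation of log2(RPKM + 0.1) from the mean of the 6 libraries of the same line, for each gene (rows) and library (columns); red is above and blue below the mean, and the colour scale ends at 1.2 on either side. The top rows, Egr1, Fos and Fosb, are red in every replicate 3, and the bottom rows, Fosl2, Jun, Klf6 and Myc, are red in TM4 shNC 1 and 2 and pale or blue in the other TM4 libraries.

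The genes whose profile was most like that of a member were found over 9999 genes and 12 libraries, as the root mean square difference of log2 values centred within each line. For Myc they were Cd209c (0.0789), Nop14 (0.0898) and Tnfaip3 (0.101), against a median of 0.611 over all genes compared. Nop14 had 196.57, 196.33 and 72.14 RPKM in TM4 shNC and 63.68, 62.85 and 65.2 RPKM in TM4 shM5, and Tnfaip3 had 19.7, 19.67 and 5.83 RPKM and then 5.3, 5.34 and 6.44 RPKM. Both followed Myc in that shNC replicates 1 and 2 were high and replicate 3 was not. For Klf6 the nearest were Zfp991 (0.0955), Zup1 (0.101) and Gm6445 (0.103), against a median of 0.419. For Fosl1 they were Ltbp1 (0.194), Rps27l (0.304) and Tmem158 (0.306), against 0.605, and for Egr1 Hpse (0.236), Wdr19 (0.248) and Prrg1 (0.258), against 0.525. Myc and Klf6 therefore had closer neighbours than Fosl1 and Egr1 on this measure. The profiles share library composition, and the likeness is a description.

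In TM4 cells 0 genes of the other lists were called, as none was among all genes. The median log2 difference was −0.17 for 34 other immediate early genes, −0.29 for 13 other bZIP partners, −0.20 for 30 MYC targets, −0.51 for 12 other Kruppel-like factors, 0.05 for 38 upstream genes, 0.10 for 14 genes of the MYC network and 0.11 for 23 AP-1 targets, against 0.04 over all genes. Without shNC replicate 3, the control that stood apart, 28 of the 34 immediate early genes were called, 11 higher and 17 lower. In that fit 67.4% of all genes were called, as given above, and its counts are a description. In the same fit 12 of 13 bZIP partners were called (2 higher, 10 lower), 27 of 30 MYC targets (6 and 21), 11 of 14 MYC network genes (6 and 5), 26 of 38 upstream genes (14 and 12), 18 of 23 AP-1 targets (10 and 8) and 10 of 12 Kruppel-like factors (1 and 9). Ctgf, a matricellular growth factor gene and among the most abundant of the immediate early genes, was at 269.79, 266.73 and 129.93 RPKM in shNC and 123.26, 121.5 and 131.1 RPKM in shM5. Cyr61 and Errfi1, the other most abundant genes of that list, had differences of −0.05 and −0.18, and Ctgf of −0.75. Ldha, a MYC target that makes lactate, was at 860.71, 849.6 and 1577.69 RPKM in shNC and 1599.62, 1623.44 and 1688.18 RPKM in shM5, the opposite direction to Myc. Npm1 and Eif4a1, the other most abundant MYC targets, had differences of −0.27 and 0.13. Of the 30 MYC targets 22 were below 0, as Myc was, and 8 above.

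A few other immediate early genes were picked after their values were seen, because they had the widest spread among TM4 libraries. Atf3, a stress-induced bZIP factor, was at 72.4, 71.01 and 7.76 RPKM in TM4 shNC and 4.73, 5.59 and 5.21 RPKM in shM5. Klf4, a Kruppel-like factor, was at 10.1, 10.95 and 2.34 RPKM in shNC and 1.19, 1.37 and 1.79 RPKM in shM5. Both were high in shNC replicates 1 and 2, as Myc was. Egr3, a relative of Egr1, was at 0.51, 0.48 and 4.19 RPKM in shNC and 2.48, 2.41 and 3.25 RPKM in shM5, the reverse order. In C18-4 cells Atf3 was at 11.54, 10.57 and 23.02 RPKM in shNC and 14.93, 14.78 and 34.39 RPKM in shM5, highest in replicate 3 of both groups.

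**Figure D5:**
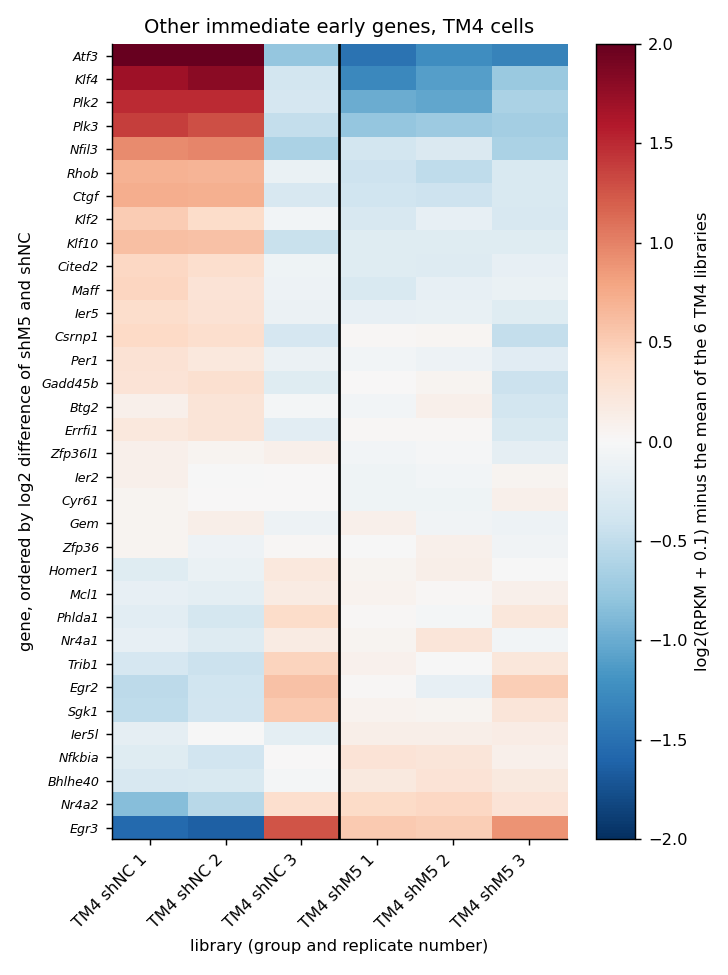
Deviation of log2(RPKM + 0.1) from the mean of the 6 TM4 libraries for 34 other immediate early genes, ordered by the log2 difference of shM5 and shNC; the colour scale ends at 2 on either side. The upper rows, from Atf3 to Ctgf, are red in shNC 1 and 2 and blue or pale in shNC 3 and the shM5 libraries, and the lowest row, Egr3, has the opposite colours.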

How the data were processed

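The 12 libraries were grouped by the sample descriptions. The authors enriched poly(A) RNA, sequenced it, aligned reads with SOAPaligner and deposited RPKM values with 2 decimals for 17995 genes. The genome build is not given in the sources used here, and the study's methods describe both RPKM and FPKM. RPKM keeps no read numbers, so the depth behind a value is unknown. From the steps between low values of 351 to 359 genes per library (whole multiples within 0.15), the relative value of 1 read was 0.982 to 1.01, so that depth differed little.

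Each line was fitted on its own with limma 3.58.1 (R 4.3.3) on log2(RPKM + 0.1), with eBayes and a trend, for genes averaging 0.5 RPKM or more, and the lines together in 1 fit of 12 libraries for their difference. Group means carry the SD and log2 differences the SE, and p-values were adjusted by Benjamini-Hochberg over all genes tested. A fold is on the log2(RPKM + 0.1) scale. The scripts were tested on simulated data. The members and the gene lists were chosen with earlier results of these data known. The genes named were the 10 members, Chrm5, up to 6 called genes of each list or, with fewer than 3 called, the 3 of highest mean RPKM, and the 3 nearest profiles of Fosl1, Egr1, Myc and Klf6. Whether replicate numbers pair the samples was checked by the correlation of same-numbered deviations from the group mean. It was 0.439, 0.409 and 0.631 in C18-4 cells, all above 0.1. In TM4 cells it was 0.0729, 0.0489 and 0.127, and the numbers were taken only as names. Between replicates 1 and 2 of opposite groups in C18-4 cells it was 0.341 and 0.345, and between replicate 3 and the others −0.514 to −0.467. Only replicate 3 was thus clearly set apart, and a pairing of replicates 1 and 2 by number was not established. Alternatives were other pseudocounts (1 and 0.01), no filter or one at 2 RPKM, median scaling, no trend, 1 fit of all libraries, the replicate block, the study's threshold (an FDR up to 0.001 with a log2 ratio of 1 or more in size, which the authors used with DEGseq) and leaving out libraries. Motifs were searched with Python 3.11.15.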

Additional observations from a re-analysis of the deposited data

Results flagged for a closer look

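For 1 AP-1 target gene, Mmp9, which encodes a matrix metalloproteinase, the effect of shM5 differed between the lines in limma's interaction fit. The effect in TM4 cells minus that in C18-4 cells was 2.27 (log2), with an adjusted p of 0.0468. Mmp9 was at 1.03, 0.79 and 0.78 RPKM in C18-4 shNC and 0.18, 0.38 and 0.16 RPKM in C18-4 shM5. In TM4 cells it was at 1.23, 1.24 and 1.7 RPKM in shNC and 2.08, 2.71 and 2.24 RPKM in shM5. All 3 shM5 libraries were below shNC in C18-4 cells and above it in TM4 cells. The levels were low. The adjusted p was 0.051 after median scaling and 0.105 with the replicate block. With 1 library left out it ran from 0.000478 to 0.165. The call held without replicate 3 of either shNC group or without C18-4 shM5 replicate 2, and was lost without any of the other 9 libraries.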

How the results depend on the processing

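In C18-4 cells 68 genes were called. The count was 0 at the study's threshold, 4 with no filter, 45 with no trend and 143 in 1 fit of all 12 libraries. It was 1386 with the replicate block and 3032 with replicate 3 of each group left out. It ran from 0 to 237 when 1 library was left out. The block treats same-numbered samples as pairs, which the labels do not state. In TM4 cells 0 genes were called. The count was 8003 with replicate 3 of each group left out, and from 0 to 7430 when 1 library was left out, the latter without shNC replicate 3. It was 0 in the other settings, the block included. The difference between the lines gave 12 genes. It gave 27 with a pseudocount of 1 RPKM, 21 with no filter, 6 after median scaling, 2 with the replicate block, 7029 with replicate 3 of each group left out, and 0 to 4483 when 1 library was left out, the highest without TM4 shNC replicate 3. TM4 against C18-4 shNC gave 7725 genes and stayed within 1.5 times that count in every setting run. The cause of these shifts was not tested. The block changed member calls only for Fosl1, Fosl2, Junb and Egr1 in C18-4 cells. No read numbers were given, so the limit that depth sets on low genes such as Fosb is not known. With 3 libraries a group, an exact permutation test of 1 gene cannot go below p = 0.1.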
